A study of Mus musculus with 5 samples.

Results

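Tbr1, Meis1, Meis2, Lhx2, Lhx9, Lmo3, Irx3 and Irx5 are 8 genes known from glutamatergic neurons of the cerebellar nuclei, and they were taken by name, with no threshold on a measured value. All 8 were among the 15971 genes of a single-cell table from embryonic mouse cerebellum, and all 6987 cells of its 5 libraries were used. The question was in which cells these genes were detected, in which cells 3 or more of them were detected together, and what level of Barhl1, Eomes, Mapt and Atoh1 those cells carried.

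The 5 libraries were cerebellum at 3 labelled ages. RL_e13 (2 libraries) and RL_e14 (2 libraries) have titles that begin with RL and carry the letters UT, which the labels do not explain, and no strain or genotype is given for them. EomesCreER_e16 (1 library) has a title that names an Eomes-driven CreER allele, but how its cells were selected, whether tamoxifen was given and which sequence the allele recombines are not stated in the labels. RL_e13 replicate 2 has an age tag of e14 against e13 in its title, the number of RL_e14 replicate 1 is not in its title, and nothing states that replicates came from separate embryos, so p-values measure only how far these libraries spread, and that spread may be technical. Single RNA molecules were counted by unique molecular identifiers (UMIs), and the RL libraries had median UMIs per cell of 15855 to 19970 against 10346 in the e16 library. RL_e13 replicate 1 stood apart in its makeup, with 650 of its 706 cells in the progenitor-like class defined below and 51 in the granule cell progenitor-like class. In 12 cells, 5 of them co-detecting 3 or more of the 8 genes, the barcode was found in 2 libraries.

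Glutamatergic nuclear neurons are the first neurons to leave the rhombic lip, the germinal edge of the cerebellar plate that later gives granule cell progenitors and unipolar brush cells. They migrate over the surface of the cerebellum to the nuclear transitory zone and pass from Atoh1, the proneural factor of the rhombic lip, through Pax6 and Eomes to Tbr1. Meis1 and Meis2 are homeodomain proteins of the TALE class that bind DNA with Pbx partners, Irx3 and Irx5 are TALE homeodomain proteins of the Iroquois family, Lhx2 and Lhx9 are LIM homeodomain proteins, Lmo3 is a LIM-only protein without a homeodomain, and Tbr1 is a T-box protein close to Eomes.

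Cells were grouped by clustering that left out the 8 genes, the 4 genes read beside them and the pathway genes described below. The clusters were then named from marker lists that hold Barhl1, Atoh1 and Mapt. Differences of these genes between classes are therefore not independent of the class names. Progenitor-like cells (1646 in 5 clusters) carried radial glia genes, granule cell progenitor-like (GCP-like) cells (2307 in 6 clusters) carried Barhl1 and, in the RL libraries, Atoh1, and 1 cluster of 472 cells, called postmitotic here, had high neuronal and low cell cycle genes and was led by Cbln2, Gap43 and A930017K11Rik. A further 2562 postmitotic cells, 2521 of them from the e16 library, were kept apart because their clusters were made almost wholly of that library. The progenitor-like class includes cluster 16 (144 cells) and cluster 17 (33 cells), which were led by genes of the roof plate and choroid plexus, among them Ttr and Wnt1 in the first and Rspo1 and Msx1 in the second. The 114 GCP-like cells of the e16 library differed from those of the RL libraries: they held 70.8 CPM of Atoh1 (against 353 to 597 CPM), 332 CPM of Eomes (against 30.9 to 44.5 CPM) and 815 CPM of Otx2, a factor of the unipolar brush cell lineage (against 58.2 to 175 CPM), where CPM is a level scaled to the total count of each cell. Results that rest on them are given with and without that library for Meis2, Tbr1, Irx5, Lmo3 and Lhx9. The other comparisons of postmitotic with GCP-like cells include it. Otx2 was not particular to the GCP-like cells of e16: it stood at 347 CPM in cluster 16 and had a UMI in 24.7% of progenitor-like cells. No cluster could be named nuclear neurons: the highest mean of Tbr1 in any of the 18 clusters was 10.9 CPM, in the postmitotic cluster. The label of the gene set therefore names a cell type that the clusters did not resolve, and Irx3, Irx5 and Lmo3 were highest in progenitor-like cells.

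Promoter windows are shown first for Irx3 and Lmo3, which both fell from progenitor-like to GCP-like cells, and for Meis2 and Tbr1, which both rose from GCP-like to postmitotic cells, so that the starts of genes that moved together can be read side by side. Each is 300 bases of RefSeq on GRCm38.p6, from 250 bases before to 50 after the start site, written 5′ to 3′ on the gene's strand. Capitals mark matches on either strand to TGACAG (the core bound by TALE homeodomains of the Meis kind), TAATTA (a LIM homeodomain core) or GTGTGA (a T-box half-site), which were found in 19.2%, 5.29% and 14.5% of all 32851 such windows. No 2 of the matches overlap. The Irx3, Meis2 and Tbr1 windows lie inside the GENCODE gene, and the Lmo3 window spans the start of its gene.
Irx3 (chr8:91801605-91801904, minus strand): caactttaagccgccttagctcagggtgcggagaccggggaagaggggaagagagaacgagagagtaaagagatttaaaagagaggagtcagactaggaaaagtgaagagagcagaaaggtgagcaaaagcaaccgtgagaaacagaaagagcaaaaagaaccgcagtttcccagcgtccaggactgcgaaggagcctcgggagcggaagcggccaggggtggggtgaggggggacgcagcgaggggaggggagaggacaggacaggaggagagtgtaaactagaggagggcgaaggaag
Lmo3 (chr6:138581919-138582218, minus strand): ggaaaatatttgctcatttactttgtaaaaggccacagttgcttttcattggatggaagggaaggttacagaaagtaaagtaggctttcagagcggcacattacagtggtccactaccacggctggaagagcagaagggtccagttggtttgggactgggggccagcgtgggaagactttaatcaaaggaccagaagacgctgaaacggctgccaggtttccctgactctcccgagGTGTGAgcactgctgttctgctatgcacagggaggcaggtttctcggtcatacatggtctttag
Meis2 (chr2:116064570-116064869, minus strand): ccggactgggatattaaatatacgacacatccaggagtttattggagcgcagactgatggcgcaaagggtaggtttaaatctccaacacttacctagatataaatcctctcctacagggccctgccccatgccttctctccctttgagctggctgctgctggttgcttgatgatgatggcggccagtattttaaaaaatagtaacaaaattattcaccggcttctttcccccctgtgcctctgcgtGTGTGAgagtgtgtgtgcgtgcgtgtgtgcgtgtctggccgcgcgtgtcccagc
Tbr1 (chr2:61804203-61804502, plus strand): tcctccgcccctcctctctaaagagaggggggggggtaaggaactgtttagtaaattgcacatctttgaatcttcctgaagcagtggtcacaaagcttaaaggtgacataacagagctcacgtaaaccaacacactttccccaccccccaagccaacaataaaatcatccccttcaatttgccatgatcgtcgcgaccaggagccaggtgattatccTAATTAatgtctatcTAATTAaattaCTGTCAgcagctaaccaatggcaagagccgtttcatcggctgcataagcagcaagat

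The Tbr1 window held 2 TAATTA cores, 33 and 18 bases before the start site, and 1 TALE core, as CTGTCA, 7 bases before it. Meis2 and Lmo3 each held 1 GTGTGA, 4 and 14 bases before the start site, and the Irx3 window held none of the 3 motifs. Of the windows not printed, Lhx9 held 1 TGACAG and Meis1 and Lhx2 held no match. 7 of the 8 genes had a window. These matches describe letters in the windows and were not tested as binding sites. Irx3 and Irx5 lie 555558 bases apart on chromosome 8 with 0 coding genes between them in the GENCODE annotation of GRCm38. Some of the genes have a partner on the other strand (Irx3 with Irx3os, Lmo3 with 3 genes, Lhx2 and Meis1 with 2 each). No source used here says whether reads were assigned by strand. Whether reads of a partner were counted with these genes is therefore not known here. Meis1 also overlaps 3 annotated genes on its own strand.

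Meis1 was the most widespread of the 8 genes. Its mean level was 230 and 278 CPM in the RL_e13 libraries, 205 and 215 CPM in the RL_e14 libraries and 185 CPM at e16, and a UMI was found in 95.9%, 96.9%, 88.2%, 93% and 70.4% of cells in the same order. It was high in all 5 libraries and in all 3 classes, so it adds to a count of detected genes in nearly every RL cell.

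Meis2, Irx3, Irx5 and Lmo3 were genes of the RL libraries. For Meis2 the mean level was 55.8 and 40.4 CPM in RL_e13, 31.1 and 19.2 CPM in RL_e14 and 1.96 CPM at e16. The e16 value came from 72 UMIs in 18 cells, 35 of the UMIs in 1 cell. Irx5 stood at 83.7 and 60.4 CPM in RL_e13, 45.2 and 51.7 CPM in RL_e14 and 2.92 CPM at e16, and Irx3 at 20.4, 10.3, 6.71, 9.42 and 0.727 CPM. Lmo3 ran at 26.8, 24.1, 19, 24.3 and 2.44 CPM. These 4 genes were each lower in the e16 library than in every RL library, a contrast of 1 library with no test, in which age, allele and cell selection cannot be told apart.

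Lhx2, Lhx9 and Tbr1 were detected in few cells of any library. Lhx9 had a UMI in 4.96% and 8.31% of RL_e13 cells, 7.55% and 10.7% of RL_e14 cells and 9.16% of e16 cells, Lhx2 in 3.68%, 7.87%, 4.59%, 4.86% and 0.822%, and Tbr1 in 0.283%, 1.54%, 1.15%, 2.7% and 1.94%. Free RNA can place single UMIs in cells that do not express a gene: Tbr1 had a UMI in 0.425% of progenitor-like cells (7 of 1646, median 16568 UMIs), where the gene should be absent, against 8.05% of postmitotic cells (38 of 472, Wilson 95% interval 5.92% to 10.9%, median 17303 UMIs). Lhx9 had 1.4% against 21.4% in the same 2 classes. For Irx3 the order was the other way round, with 26.8% of progenitor-like and 0.636% of postmitotic cells.

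Between e13 and e14, whole libraries were compared with limma on log2(CPM + 5), and the adjusted p is the Benjamini-Hochberg value over all genes tested. 0 of 12388 genes passed an adjusted p of 0.05 (0%), none of the 8 among them, and 2019 (16.3%) had an unadjusted p under 0.05. Meis1, Meis2, Irx3 and Irx5 were lower in both RL_e14 libraries than in both RL_e13 libraries, which held for 39.2% of all genes, and Lhx9 was higher in both, which held for 17.2%. The log2 differences (e14 minus e13) were -0.83 ± 0.25 for Meis2 (SE, adjusted p = 0.3), -0.60 ± 0.28 for Irx3 and -0.51 ± 0.18 for Irx5, against 0.36 ± 0.18 for Lhx9. Lmo3, Lhx2 and Tbr1 overlapped between the ages.

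The libraries also differed in makeup, and the part of makeup in these values was not tested. Progenitor-like cells made up 650 of 706 and 637 of 1818 RL_e13 cells against 208 of 1046 and 141 of 741 RL_e14 cells. In the mean of the progenitor-like and GCP-like profiles, each class weighted equally, the difference of Irx3 was 0.29 and that of Irx5 0.34, both of the other sign than in whole libraries, and no gene passed there either. Without RL_e13 replicate 2, 1987 genes passed, among them Meis2 (-1.04, adjusted p = 0.03), Irx3 (-0.97) and Irx5 (-0.73), both with limma's adjusted p = 0.018. The e13 side is then RL_e13 replicate 1 alone, the library that stood apart, and it is assumed to vary like the RL_e14 libraries. With RL_e13 replicate 2 counted as e14, as its age tag has it, 753 genes passed, again with RL_e13 replicate 1 as the only e13 library, set against 3.

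**Figure D1:**
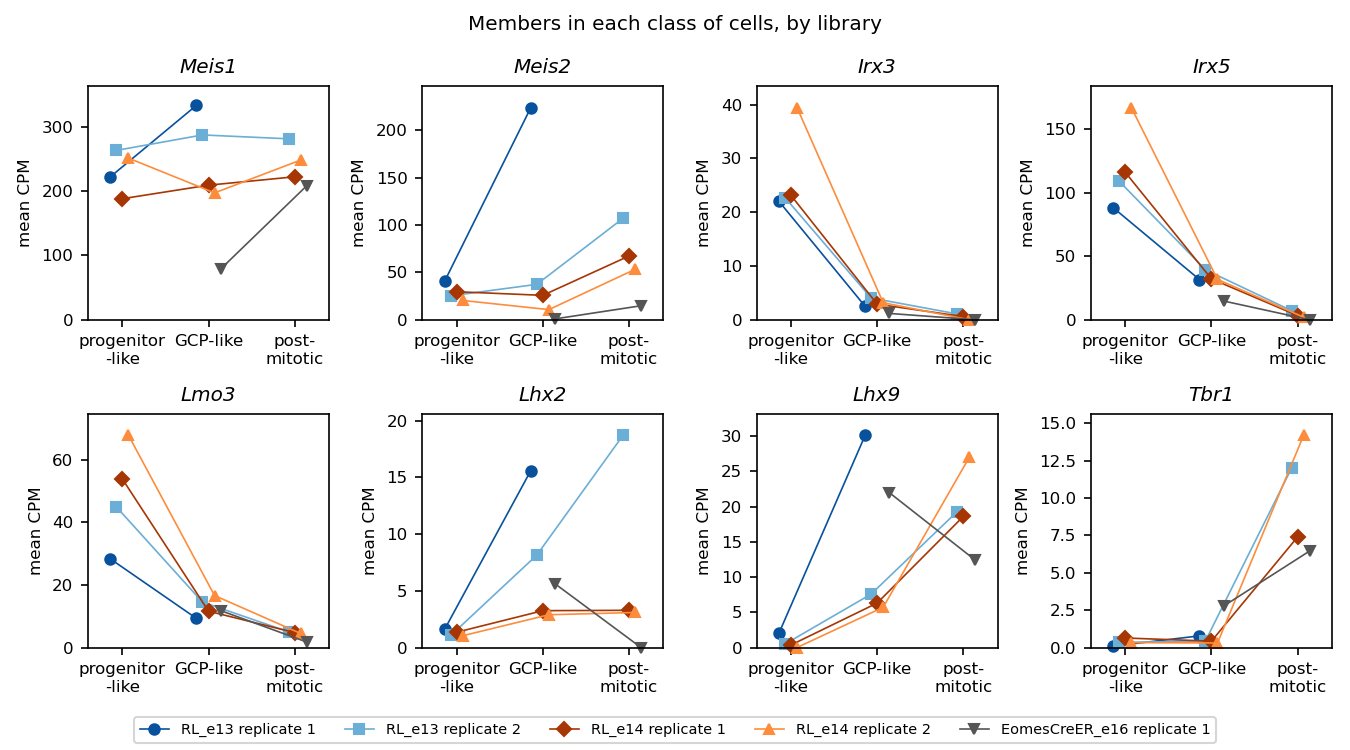
Mean level of each of the 8 genes (CPM, y axis) by class of cells (x axis), with 1 point per library and at least 20 cells behind each point. Irx3, Irx5 and Lmo3 are highest in progenitor-like cells, Tbr1 in postmitotic cells, and RL_e13 replicate 1 stands far above the other libraries for Meis2 and Lhx9 in GCP-like cells (224 and 30.1 CPM).

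Irx3, Irx5 and Lmo3 were genes of the progenitor-like cells and fell in GCP-like cells. In progenitor-like cells Irx3 stood at 22 and 22.7 CPM in RL_e13 and 23.1 and 39.4 CPM in RL_e14, and in GCP-like cells at 2.51, 4.05, 2.9 and 3.17 CPM. The groups did not overlap, and the log2 difference (GCP-like minus progenitor-like, on the log2(CPM + 5) scale with the library as a block) was -1.93 ± 0.15 (SE, n = 4 libraries, limma adjusted p = 5.2e-05). Irx5 went from 88.2, 109, 116 and 167 CPM to 31.7, 39.4, 32.2 and 31.8 CPM, a log2 difference of -1.66 ± 0.14 (adjusted p = 9.3e-05). Lmo3 went from 28.3, 44.9, 53.8 and 67.8 CPM to 9.29, 14.5, 11.6 and 16.6 CPM (-1.54 ± 0.13, adjusted p = 6.7e-05). All 3 fell in 4 of 4 libraries, with no overlap between the classes. Irx3 passed the filter, a mean of 5 CPM over both classes, only through its progenitor-like level.

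Lhx9 rose in the same comparison. It stood at 2.05, 0.49, 0.36 and 0 CPM in progenitor-like cells and at 30.1, 7.58, 6.31 and 5.71 CPM in GCP-like cells, a log2 difference of 1.42 ± 0.22 (limma adjusted p = 0.0017), with the classes apart in 4 of 4 libraries. Lhx9 passed the filter, a mean of 5 CPM over both classes, only through its GCP-like level and the 30.1 CPM of RL_e13 replicate 1, and the adjusted p with no filter on level was 0.0033. Meis1 (0.13 ± 0.13, adjusted p = 0.47) and Meis2 (0.49 ± 0.42, adjusted p = 0.41) did not pass. Meis2 was split by library: GCP-like cells held 224 and 37.4 CPM in RL_e13 against 40.8 and 25.3 CPM in progenitor-like cells, and 25.8 and 10.7 CPM in RL_e14 against 29.6 and 20.4 CPM. Lhx2 lay under the 5 CPM filter and was not tested, with 1.04 to 1.61 CPM in progenitor-like and 15.6, 8.15, 3.25 and 2.89 CPM in GCP-like cells.

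Beside these 4 calls among the 6 genes tested, 34.4% of all 9866 genes passed (13.2% higher, 21.2% lower). Which genes were tested depended on their level, so that the 4 calls are no measure of the set. Tbr1 was at 0.302 to 0.779 CPM in GCP-like and 0.0958 to 0.637 CPM in progenitor-like cells, both near its background, and lay under the filter. With median-of-ratios scaling the split of all calls moved from 1304 higher and 2089 lower to 1701 higher and 1707 lower, and the 6 genes kept their calls. Without clusters 16 and 17, an alternative chosen after seeing the data, the count of all calls was 3233, and the same 4 of the 6 genes passed. The GCP-like values of RL_e13 replicate 1 rest on 51 cells, and without that library the calls of Irx3, Irx5 and Lmo3 held, Lhx9 lay under the filter and was not tested, and the Meis2 difference was -0.12. The genes of stress and dissociation also differed, with 8 of 8 tested lower in GCP-like cells (summed level 864 against 2802 CPM), and their part in the result was not tested.

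Of the other Iroquois genes, Irx1, Irx2 and Irx4 fell too. Irx1 fell from 281 ± 41.9 to 133 ± 24.4 CPM (SD, n = 4, log2 difference -1.05, limma adjusted p = 0.00031) and Irx2 from 229 ± 39.4 to 112 ± 20.4 CPM (-1.0, adjusted p = 3.8e-05). Irx4, at a lower level, went from 9.93 ± 3.56 to 0.724 ± 0.767 CPM (-1.36, adjusted p = 0.00012), and Irx6 lay under the filter. Irx4 passed the filter only through its progenitor-like level. Pbx3, a DNA-binding partner of Meis proteins, did not pass (0.30, limma adjusted p = 0.13). Lhx1, a LIM homeodomain relative, rose from 4.63 ± 3.23 to 14.6 ± 3.88 CPM (1.07, adjusted p = 0.016) and passed the filter only through its GCP-like level. Of 30 relatives and partners in the TALE, LIM, Iroquois and T-box families, 23 were tested, 6 rose and 9 fell, with a median difference of -0.19 against -0.05 over all genes.

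From GCP-like to postmitotic cells, Meis2 and Tbr1 rose. Meis2 stood in GCP-like cells at 37.4, 25.8, 10.7 and 0.893 CPM (RL_e13 replicate 2, both RL_e14 libraries and e16) and in postmitotic cells at 107, 67.3, 53.2 and 14.8 CPM. It was higher in 4 of 4 libraries, although the ranges overlapped across libraries, and the log2 difference was 1.57 ± 0.15 (limma adjusted p = 0.00061). Without the library as a block the adjusted p was 0.082, and with e16 left out Meis2 differed by 1.51 (adjusted p = 1.1e-05).

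Tbr1, the factor that marks the settled glutamatergic nuclear neuron, stood in GCP-like cells at 0.436, 0.425, 0.302 and 2.77 CPM and in postmitotic cells at 12, 7.4, 14.2 and 6.46 CPM. The groups did not overlap, and the log2 difference was 1.31 ± 0.24 (limma adjusted p = 0.006). Tbr1 passed the 5 CPM filter only through its level in postmitotic cells, and the adjusted p with no filter on level was 0.0099. With e16 left out it differed by 1.56 (adjusted p = 4.4e-05). The e16 value in postmitotic cells is 2 UMIs in 1 of 31 cells, with a 95% interval of 0.492 to 14.7 CPM that covers counting error only.

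Irx5 and Lmo3 fell further. Irx5 went from 39.4, 32.2, 31.8 and 14.8 CPM to 7.2, 3.31, 2.03 and 0 CPM (-2.10 ± 0.15, limma adjusted p = 0.00035), and Lmo3 from 14.5, 11.6, 16.6 and 11.8 CPM to 5.02, 4.77, 4.48 and 1.76 CPM (-1.06 ± 0.16, adjusted p = 0.0028). Irx3 lay under the filter, at 4.05, 2.9, 3.17 and 1.18 CPM in GCP-like and 1.08, 0.595, 0 and 0 CPM in postmitotic cells. No overlap was seen for any of the 3. Irx5 and Lmo3 passed the filter only through their GCP-like level. Without the e16 library the differences were -2.14 for Irx5 (limma adjusted p = 2.4e-06) and -0.97 for Lmo3 (adjusted p = 0.00038).

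Lhx9 stood at 19.3, 18.6, 27 and 12.4 CPM in postmitotic cells against 7.58, 6.31, 5.71 and 22 CPM in GCP-like cells, and did not pass (0.74 ± 0.35, limma adjusted p = 0.13). It was lower in postmitotic cells only in the e16 library, whose GCP-like cells had the Otx2, Eomes and Atoh1 levels given above, and without that library the difference was 1.20 (adjusted p = 0.00016). Eomes likewise differed by -2.64 at e16 against 2.0 to 2.81 in the RL libraries, and how far the 2 kinds of GCP-like cells account for this was not tested. Lhx2 (-0.05 ± 0.31) and Meis1 (0.43 ± 0.23) did not pass. Meis1 differed by 1.35 at e16 against -0.03 to 0.32 in the RL libraries, and Lhx2 by -1.09 against 0.01 to 0.85. Lhx2 was at 18.7, 3.28 and 3.09 CPM in the postmitotic cells of the RL libraries and had no UMI in the 31 of e16, where a count of 0 allows up to 7.5 CPM (exact Poisson).

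Beside these 4 calls among the 7 genes tested, 45.5% of all 9751 genes passed (22.9% higher, 22.6% lower). Irx1 and Irx2 fell here too, by 1.78 and 0.80 on the log2 scale, and Meis3, another Meis gene, rose by 1.03 (from 17.3 ± 1.71 to 42.5 ± 15.6 CPM, limma adjusted p = 0.0054). Of 18 other genes known in nuclear neurons and their transitory zone, 17 were tested, 6 rose and 3 fell, with a median of 0.34 against 0.00 over all genes. Many of these are general neuronal genes. In the same comparison 11 of 12 neuronal differentiation genes rose, but the classes were named with that list, so its rise is not a separate result.

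**Figure D2:**
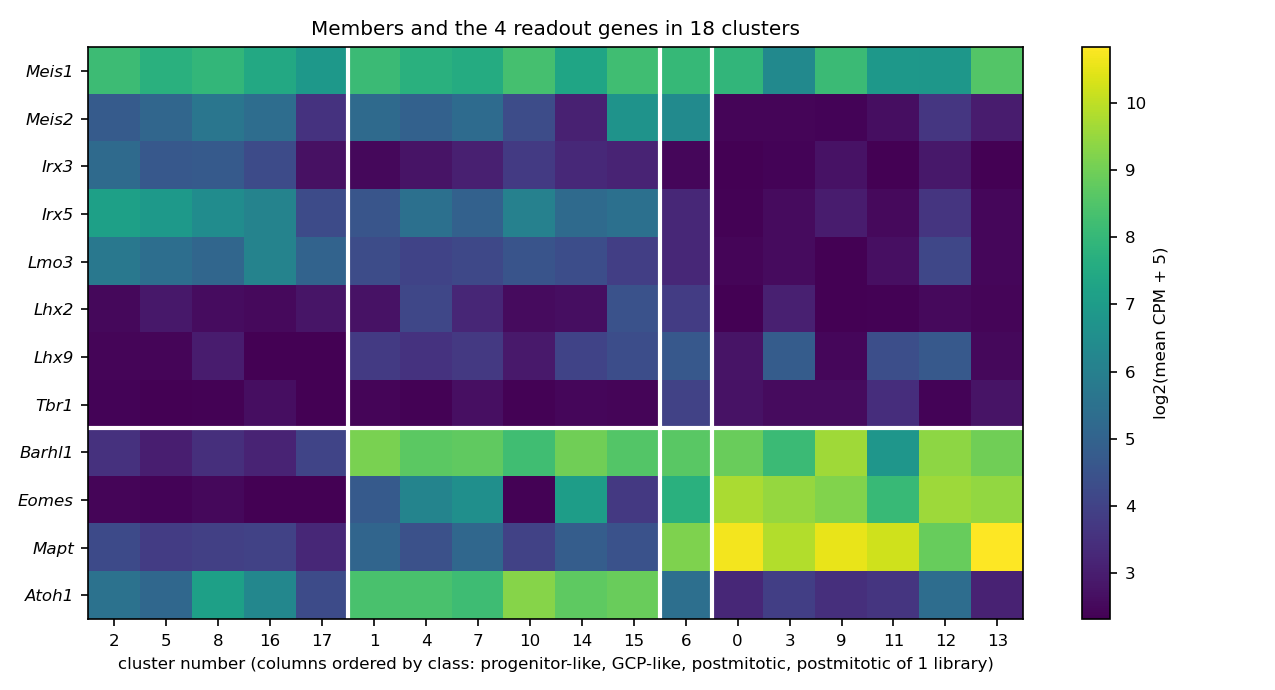
Mean level of each of the 8 genes and of Barhl1, Eomes, Mapt and Atoh1 (rows; log2 of CPM + 5, colour) in the 18 clusters (columns, by class). Irx3, Irx5 and Lmo3 are high together in the progenitor-like clusters other than cluster 17 (33 cells, Irx3 1.45 CPM), Tbr1 peaks in postmitotic cluster 6 at 10.9 CPM, and Lhx9 reaches 22.8 CPM in cluster 3 of the e16 library.

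Across the 17 clusters with 50 or more cells, Irx5 and Lmo3 (Pearson r = 0.926) and Irx3 and Irx5 (r = 0.890) had the most similar levels within the set, and Meis1 and Lhx9 ran opposite (r = -0.580). These are descriptions over clusters that share libraries and depth. Irx5 was most like Sox2, a neural stem cell factor (r = 0.983), Irx3 most like Cyp26b1, a retinoic acid-degrading enzyme (r = 0.976), and Lmo3 most like Plin3 (r = 0.973) and Foxp2 (r = 0.972). Lhx9 was most like Inpp5a (r = 0.909) and its relative Lhx1 (r = 0.878). Meis2 was most like Trappc1 (r = 0.886) and had Pbx3, a DNA-binding partner, among its 3 most alike (r = 0.836). The highest r was 0.878 for Tbr1 (Phf20l1), 0.815 for Meis1 (Foxn3) and 0.796 for Lhx2 (Med14). Tbr1 stood at 10.9 CPM in cluster 6, 5.9 CPM in cluster 11 and no more than 1.82 CPM elsewhere. Its r therefore rests largely on clusters 6 and 11.

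Cells in which 3 or more of the 8 genes were detected numbered 1790: 407 and 809 in RL_e13, 293 and 245 in RL_e14 and 36 at e16, which is 57.6%, 44.5%, 28%, 33.1% and 1.35% of cells. Detection rises with depth, and co-detecting cells had higher median UMIs than other cells in every library (19464 against 17263 in RL_e13 replicate 1, 13438 against 10329 at e16). After each cell was thinned to 5000 UMIs the shares were 12.3%, 8.64%, 5.56%, 6.65% and 0.264%. The RL_e14 mean was 4.35 percentage points below the RL_e13 mean with no overlap (exact two-sided permutation p = 0.33, the smallest that 2 against 2 libraries can give). No cell carried all 8 genes, and 1 carried 7.

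Co-detecting cells lay mostly in the progenitor-like and GCP-like classes. Progenitor-like cells made up 967 of the 1790 (54%), GCP-like cells 694 (38.8%) and the postmitotic cluster 106 (5.92%), with 23 in the clusters of the e16 library. Of all 6987 cells these classes held 1646, 2307 and 472, and the clusters of the e16 library 2562. After thinning, the share co-detecting within progenitor-like cells was 11.9% and 13.4% in RL_e13 and 15.5% and 21.7% in RL_e14, and within GCP-like cells 15.7% and 5.88% against 3.12% and 3.1%. It was thus higher at e14 in the first class and lower in the second, each with an exact permutation p = 0.33, and this difference between the classes was not tested. In postmitotic cells the share with all UMIs was 30%, 13.8% and 25.2% in RL_e13 replicate 2 and the RL_e14 libraries, and 0 of 31 at e16 (Wilson upper limit 11%). After thinning it was 7.41%, 3.28% and 4.1% in these RL libraries. The thinned GCP-like shares there were 5.88%, 3.12% and 3.1%, with overlapping Wilson intervals.

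**Figure D3:**
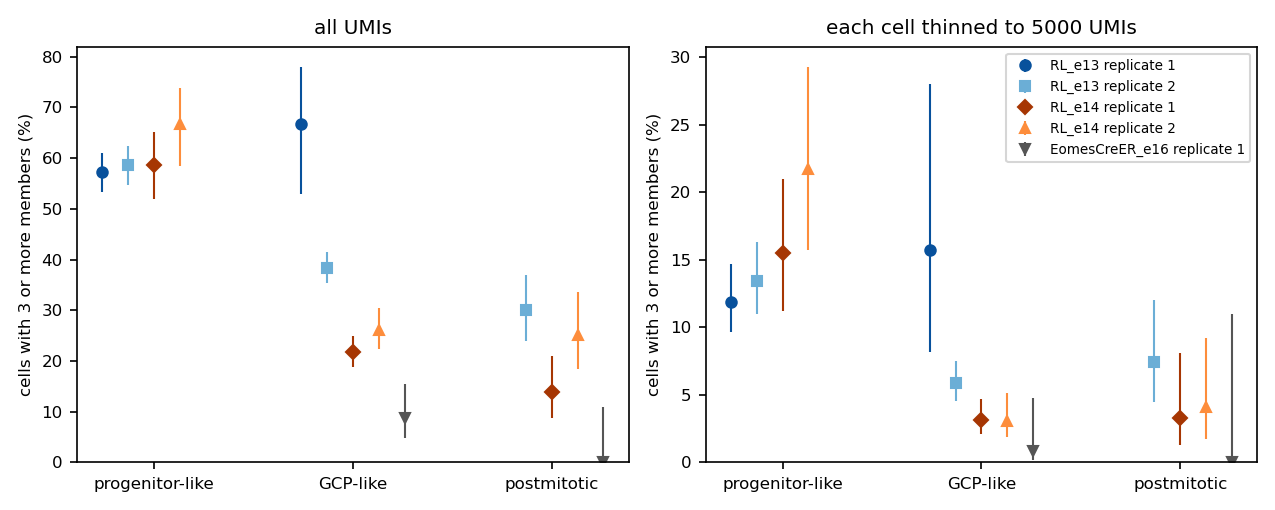
Share of cells co-detecting 3 or more of the 8 genes (percent, y axis) by class (x axis), with 1 point per library and Wilson 95% intervals. The RL points sit between 57.2% and 66.7% in progenitor-like cells with all UMIs, and thinning to 5000 UMIs lowers them to 11.9% to 21.7%.

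The genes that made up co-detection differed by class. The commonest set over all cells was Meis1 with Irx5 and Lmo3 (333 cells, 18.6%), then Meis1 with Meis2 and Irx5 (249 cells) and Meis1 with Irx3 and Irx5 (180 cells). Among co-detecting progenitor-like cells Irx5 was found in 89.8%, Lmo3 in 65%, Meis2 in 45.3% and Irx3 in 42%, and Lhx9 and Tbr1 in only 2.28% and 0.62%. Among the 106 postmitotic cells Meis2 was found in 84%, Lhx9 in 55.7%, Tbr1 in 25.5% and Lhx2 in 23.6%, and Irx3 in 2.83%. Their commonest set was Meis1 with Meis2 and Lhx9 (29 cells, 27.4%), and Meis1 with Meis2 and Tbr1 was found in 9 cells.

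**Figure D4:**
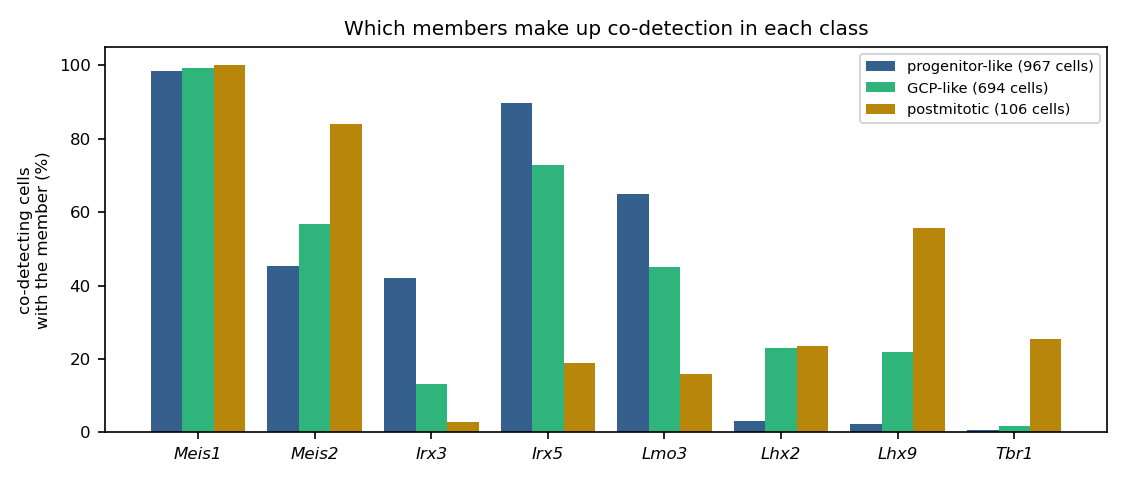
Share of co-detecting cells with each of the 8 genes (percent, y axis), by class (bars, 967 progenitor-like, 694 GCP-like and 106 postmitotic cells, pooled over libraries). Irx5 and Lmo3 lead beside Meis1 in progenitor-like cells (89.8% and 65%), and Meis2 and Lhx9 in postmitotic cells (84% and 55.7%).

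Within a class, the share of cells with 1 gene differed by whether another was detected for some pairs only. In progenitor-like cells, 73% of those with Lmo3 and 69.7% of those without it had Irx5, with overlapping Wilson 95% intervals. Irx5 was found in 71% of progenitor-like cells with Meis2 and 71.3% of those without Meis2. Of GCP-like cells with Irx3, 69.2% had Irx5 (81 of 117, Wilson 95% interval 60.4% to 76.9%), against 36.1% of those without Irx3, at median depths of 19127 and 18654 UMIs. Meis2 went the other way in the same cells: 12% of those with Irx3 had it (14 of 117, 7.26% to 19.1%), against 28.2% of those without Irx3 (26.3% to 30.1%). Of postmitotic cells with Lhx2, 71.4% had Meis2 (20 of 28, 52.9% to 84.7%), against 38.5% of those without Lhx2 (34.1% to 43.1%). For Tbr1 and Meis2 in the same cells the shares were 52.6% and 39.4%, with overlapping intervals. Cells of a library are not replicates, so these are descriptions of the pooled cells.

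The cells with the clearest Tbr1 signal were few. 2 or more Tbr1 UMIs were found in 21 cells, 8 in RL_e13 replicate 2, 2 and 5 in the RL_e14 libraries and 6 at e16, and 16 of the 21 lay in the postmitotic cluster. All 21 had Meis1, Mapt (a microtubule-binding protein of axons) and Eomes, 12 had Meis2, 7 had Lhx9, 1 had Irx5 and 0 had Irx3. Lmx1a was found in 13 of them and Otx2 in 8. In the whole postmitotic cluster, Meis1 was found in 94.1% of cells, Mapt in 90.9%, Eomes in 77.1% and Meis2 in 40.5%. The cluster's shares were 21.4% for Lhx9, 6.14% for Irx5, 0.636% for Irx3, 13.1% for Lmx1a and 39.6% for Otx2. Otx2 was listed for the unipolar brush cell lineage, and Lmx1a for that lineage, nuclear neurons, rhombic lip and roof plate. Within the postmitotic cluster, 16 cells had 2 or more Tbr1 UMIs and 434 had none. Lmx1a stood at 148 CPM in the first and 17.5 CPM in the second. In the same order, Otx2 stood at 46.6 and 74 CPM and Eomes at 348 and 194 CPM. With 21 cells a small share cannot be told from 0.

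Of 7 cells with 6 or more of the 8 genes, 4 were progenitor-like, 2 GCP-like and 1 postmitotic, and 1 had Tbr1. The postmitotic cell, from RL_e14 replicate 2, had 7 UMIs each of Meis1 and Meis2, 4 of Lhx9, 2 of Tbr1, 1 each of Irx5 and Lmo3, 23 of Mapt, 7 of Eomes, 4 of Barhl1 and 0 of Atoh1. A cell of RL_e13 replicate 1 with 34521 UMIs had 7 of the genes, with 81 UMIs of Meis2, 16 of Lhx9 and 13 of Lhx2 beside 5 of Irx3, 12 of Mapt, 5 of Sox2 and none of Eomes or Barhl1. No doublet caller was run, and whether such cells are single was not tested.

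Barhl1, Eomes, Mapt and Atoh1 did not pass the test between co-detecting and other cells when each library gave 1 profile per side. 0 of 10022 genes passed in limma (0%), and 1962 (19.6%) had an unadjusted p under 0.05. In the order RL_e13, RL_e14, e16, Eomes stood in co-detecting cells at 4.54, 22.8, 21.7, 53.3 and 485 CPM and in other cells at 4.6, 60, 74.8, 116 and 654 CPM. It was lower in co-detecting cells in 5 of 5 libraries (log2 difference -0.86 ± 0.22, adjusted p = 0.14).

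Barhl1, a homeodomain factor of the granule cell lineage, stood in co-detecting cells at 35.7, 229, 254, 257 and 389 CPM and in other cells at 26, 333, 394, 389 and 446 CPM (-0.31 ± 0.15, limma adjusted p = 0.3). Mapt stood at 11.7, 47.1, 50.9, 124 and 504 CPM against 6.53, 70.7, 94.3, 157 and 1235 CPM (-0.49 ± 0.23, adjusted p = 0.3). Both were lower in 4 of 5 libraries, with RL_e13 replicate 1 the exception. Atoh1 stood at 137, 218, 221, 201 and 32.3 CPM against 142, 284, 282, 238 and 11.6 CPM (0.03 ± 0.22, adjusted p = 0.95), lower in the 4 RL libraries and higher at e16.

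Leaving out libraries changed this. Without the e16 library, which gave 36 co-detecting cells, 528 genes passed (375 higher, 153 lower), and Atoh1 was lower by 0.25 (limma adjusted p = 0.048). Without RL_e13 replicate 1, 142 genes passed. The summed level of 11 radial glia genes was 6624 CPM in co-detecting and 3670 CPM in other cells, and that of 12 neuronal differentiation genes 3359 against 5394 CPM, and the part of makeup in these values was not tested. With the other cells weighted to the cluster makeup of the co-detecting cells, 0 of 10023 genes passed, and 501 had an unadjusted p under 0.05.

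Within single classes the comparison was added after seeing the data, and the genes named from it were chosen after their values were seen. Within postmitotic cells (3 libraries, RL_e13 replicate 2 and both RL_e14), 166 of 9378 genes passed (1.77%). Eomes fell from 237 ± 30.1 CPM in other cells to 163 ± 40.2 CPM in co-detecting cells (SD, n = 3, log2 difference -0.54 ± 0.11, limma adjusted p = 0.0023) and was lower in 3 of 3 libraries. Mapt (645 ± 222 against 525 ± 115 CPM, adjusted p = 0.1), Barhl1 (370 ± 93.1 against 393 ± 84.8 CPM) and Atoh1 (35.6 ± 29.2 against 36.3 ± 14.1 CPM) did not pass. Median UMIs of co-detecting and other postmitotic cells were 18848 and 17907, 14961 and 14877, and 20662 and 19187 in these libraries, which gave 57, 17 and 31 co-detecting cells.

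Around Eomes, postmitotic co-detecting cells also had lower Otx2 (23 ± 18.1 against 91.6 ± 30.7 CPM, log2 difference -2.04, limma adjusted p = 6e-07), a homeodomain factor of the unipolar brush cell lineage, and lower Tlx3 (-0.93) and Pax6 (-0.55). They had higher neurofilament genes Nefl (1275 ± 326 against 608 ± 20.3 CPM, 1.03, adjusted p = 3.3e-13) and Nefm (1.08), higher Nrp1, a semaphorin receptor (65.8 ± 31.9 against 16.5 ± 10.5 CPM, 1.73), and higher Olig2 (39.8 ± 30.3 against 6.79 ± 4.39 CPM, 1.79) and Ebf2 (1.40). In limma the variance of each gene is drawn towards that of all genes. With 3 libraries, these p-values therefore do not measure the spread of a single gene alone. Of the 18 other nuclear neuron genes, all tested here, 5 rose and 3 fell. Among relatives, Irx2 rose by 1.06, from 51.1 ± 11.1 to 111 ± 12.2 CPM, and Pbx3 by 0.65. Reln (470 ± 118 against 403 ± 54.3 CPM, adjusted p = 0.4) and Slc17a6, the vesicular glutamate transporter (97.2 ± 0.588 against 115 ± 17.5 CPM, adjusted p = 0.66), did not pass. En1 and En2, the Engrailed genes of the midbrain and cerebellum in the list for neighbouring regions, rose by 0.80 and 0.59, and their part in the other results was not tested.

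Meis2 alone divided the postmitotic cells in a similar way, as a description over pooled cells. Both divisions share cells, since 89 of the 106 co-detecting postmitotic cells had Meis2, so the likeness is not a separate result. The 191 cells with Meis2 held 22.3 CPM of Otx2, 36.7 CPM of Tlx3 and 138 CPM of Eomes. The 281 without it held 108, 145 and 255 CPM, and median depths were 18420 and 16681 UMIs. Eomes was also lower with Lhx2 (146 against 212 CPM without it) and near equal with Lhx9 (204 against 209 CPM). It was higher with 2 or more Tbr1 UMIs, as given above.

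Among GCP-like cells (3 libraries), 554 of 9595 genes passed (5.77%), and 9 of 12 cell cycle genes rose in co-detecting cells: Top2a was 534 ± 60.8 in them and 331 ± 18.2 CPM in the others (SD, n = 3), a log2 difference of 0.68 (limma adjusted p = 4e-05), and Mki67 at 269 ± 41.5 against 181 ± 17.5 CPM (0.55). Tlx3 (-1.36), Otx2 (-0.63) and Gap43 (-0.56) fell. Barhl1 (434 ± 14.3 against 451 ± 11.3 CPM), Eomes (27.6 ± 8.63 against 40 ± 11.2 CPM), Mapt and Atoh1 did not pass. Co-detecting GCP-like cells had higher median UMIs in each of these libraries (20750 against 17983, 18487 against 15945, and 23194 against 21290), and the part of depth was not tested.

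Co-detecting progenitor-like cells (4 libraries) differed in 32 of 9846 genes (0.325%), and Top2a and Cdk1, both cell cycle genes, each rose by 0.76 (Top2a 418 ± 108 against 254 ± 101 CPM, SD, n = 4, limma adjusted p = 0.019). Wls, a Wnt secretion factor of the rhombic lip, fell by 0.29 (216 ± 27.6 against 266 ± 32.8 CPM, adjusted p = 0.035). Barhl1, Mapt and Atoh1 did not pass, and Eomes lay under the filter, at 0 to 1.1 CPM.

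**Figure D5:**
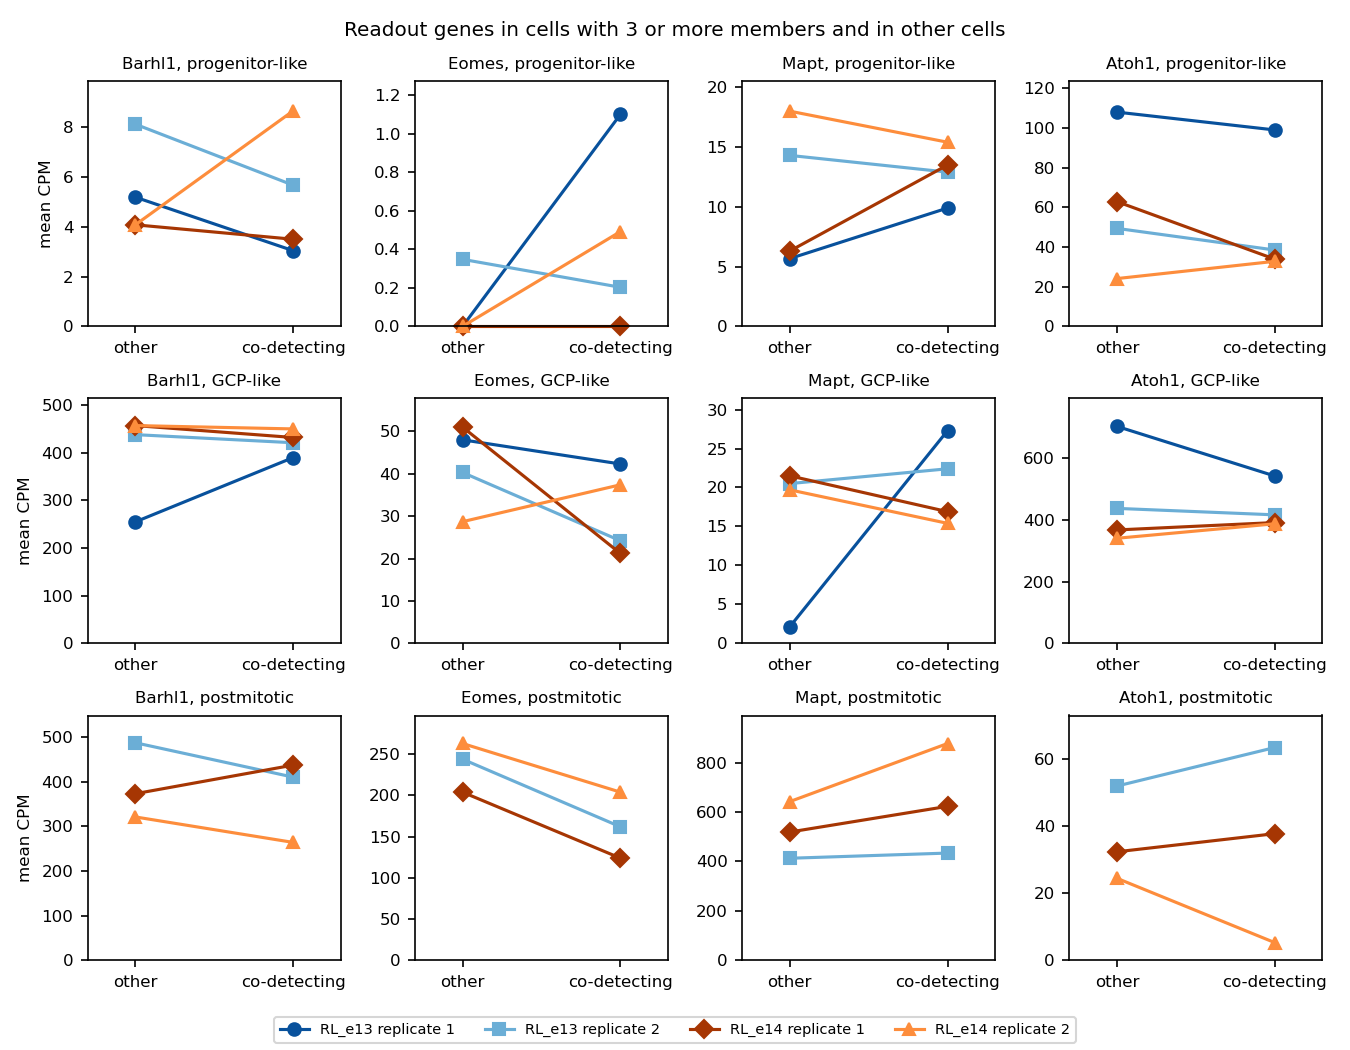
Mean level (CPM, y axis) of Barhl1, Eomes, Mapt and Atoh1 in cells with 3 or more of the 8 genes and in other cells of the same class (x axis), with 1 line per library. In postmitotic cells the Eomes lines of all 3 libraries fall, from 237 ± 30.1 to 163 ± 40.2 CPM, and those of Barhl1 and Atoh1 run both ways.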

How the data were processed

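The data are 10x Chromium 3′ single-cell libraries. The submitters' processing notes name Cell Ranger and mm10; no version, cell filter or strand setting was found in them. The deposited expression table holds natural log values made by the authors, ln(1 + 10000 × UMIs / total UMIs) per cell; this scale was read from the values. UMIs were recovered from it: 29540669 of 29540669 values above 0 came out whole (tolerance 0.01), at 3477 to 45722 UMIs per cell, and every gene was found in at least 10 cells. Cells were tied to libraries by the batch column of the deposited cell annotation, the e16 library as the 1 name left unmatched. Detection and precision follow these depths.

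Clusters (scanpy 1.11.5, leidenalg 0.10.2, 2000 variable genes, 30 components, 20 neighbours, resolution 1) left out 59 genes. Classes were named from marker lists; the naming rule was replaced once after clusters were seen, and names are rebuilt, not the authors'. No doublet caller was run. Profiles (mean CPM over at least 20 cells, 10 within postmitotic cells, a minimum lowered after seeing the data) were tested with limma 3.58.1 in R 4.3.3 on log2(CPM + 5), filtered at a mean of 1 CPM (whole libraries) or 5 CPM, with Benjamini-Hochberg adjustment over all genes. The script was tested on simulated data. Intervals are Wilson or exact Poisson at 95% and cover counting error only. Named genes were the 8, the 4 read beside them, up to 3 called genes per list, the 3 most alike per gene, relatives by level and the largest differences in the co-detection comparison. The genes, lists and tests were chosen with earlier results of these data known. Alternatives changed the pseudocount, filter, scaling, block, clustering, co-detection rule and libraries. The results of some genes are not reported here.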

Additional observations from a re-analysis of the deposited data

Results flagged for a closer look

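In groups of 4 or 5 libraries, 40 sets of values were examined for 1 library far from the rest, which chance gives in about 1 of 20. In GCP-like cells, RL_e13 replicate 1 held 224 CPM of Meis2, against 10.7 to 37.4 CPM in the other RL libraries, and 30.1 CPM of Lhx9, against 5.71 to 7.58 CPM. Both rest on its 51 GCP-like cells. RL_e13 replicate 2 held 39.4 CPM of Irx5 in GCP-like cells, against 31.7 to 32.2 CPM. RL_e14 replicate 2 held 39.4 CPM of Irx3 in progenitor-like cells, against 22 to 23.1 CPM. The e16 library held 1.76 CPM of Lmo3 in postmitotic cells, against 4.48 to 5.02 CPM.

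For Atoh1, the log2 difference between co-detecting and other cells was 1.17 at e16 against -0.376 to -0.0493 in the RL libraries, so that e16 exceeded the RL mean of -0.25 by 1.42. Meis2 was higher in GCP-like than progenitor-like cells in both RL_e13 libraries (mean 1.40) and lower in both RL_e14 libraries (mean -0.43), a gap of 1.83. Tbr1 did the same at 0.10 and -0.03, a gap of 0.13, at levels near its background. These 3 differences between groups of libraries were not tested.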

How the results depend on the processing

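For e14 against e13, the count of called genes was 0 in the reported comparison, 753 with the age tag as the grouping (1 library at e13), and 0 to 1987 when 1 library was left out (13 without RL_e13 replicate 1). For GCP-like against progenitor-like cells it was 3393, and 2178 to 3703 when 1 library was left out, the lowest without RL_e13 replicate 2. For postmitotic against GCP-like cells it was 4438, and 2743 to 5708 when 1 library was left out (2743 without RL_e14 replicate 2, 2843 without RL_e14 replicate 1). For co-detecting against other cells it was 0, then 1 with summed UMIs, 2 with co-detection after thinning, 22 with 4 or more of the 8 genes, 0 to 528 when 1 library was left out, and 32, 554 and 166 within progenitor-like, GCP-like and postmitotic cells. Atoh1 there went from 0.03 to between -0.25 and 0.13 when 1 library was left out, and to -0.25 without the e16 library. The cause of these changes was not tested. The share co-detecting fell by 20.5 points from e13 to e14 with all UMIs, and by 8.26 points after thinning to 8000 UMIs. It fell by 2.16 points with 2 or more and by 0.25 points with 3 or more of the 6 genes other than Meis1 and Meis2. With 3 or more of them the ages overlapped, at 0.999% and 0.388% in RL_e13 against 0.479% and 0.407% in RL_e14. The fall was 5.32 points with the age tag, and 4.66 points without the 5% of cells with the most UMIs.

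Replicate numbers were shared between RL_e13 and RL_e14, and the deviations of same-numbered libraries correlated at 0.131, but only the number is shared and 1 of them is not in the title. With the replicate block 0 genes passed. With a pseudocount of 1, the Lhx9 difference between GCP-like and progenitor-like cells was 2.76 against 1.42, and the Tbr1 difference between postmitotic and GCP-like cells 2.56 against 1.31. The Tbr1 call held in 9 of 12 alternatives, and in the other 3 (a filter of 10 CPM, finer clusters, without RL_e14 replicate 2) it lay under the filter. A difference of scaling moved the median of all genes by at most 0.09 on the log2 scale. Detection of all 8 genes depends on UMIs per cell, and a share near that of progenitor-like cells cannot be told from background for Tbr1.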
